A study of Mus musculus with 12 samples.

Results

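Maternal high-fat feeding was compared with a control diet in mouse embryos that lack Cited2. The comparison held 3 Cited2 -/- embryos of mothers on the high-fat diet and 3 Cited2 -/- embryos of mothers on the control diet, which are 6 of the 12 embryos in the series. The other 6 were wild type, 3 per diet, and are used where the 2 genotypes are set side by side. All embryos were of the C57BL6/J strain and were collected at 8.5 days post coitum (dpc). Both parents carried 1 mutant Cited2 allele. The mothers were put on their diet at 6 weeks of age, were mated after 8 weeks on it and stayed on it while pregnant, so every embryo of a diet group developed in a mother fed that diet before and after conception. In all groups the mothers were bled after a 6-hour fast when the diet began and again before mating. Yolk sac and allantois were taken off, somites were counted to match stages, and the RNA of each embryo was hybridised to 1 Illumina mouse BeadChip array, which reads each transcript with bead-bound probes in 1 colour. Wild-type and knockout embryos share numbers in their titles, but the 6 knockout embryos carry 6 different ones, and the labels state neither what the numbers mark nor the litter, sex or slide of an embryo. Of 45281 probes, 18254 were tested, those detected (p under 0.01 against negative control beads) on 3 or more of the 6 knockout arrays. They stood for 10245 named genes, each taken at its probe with the highest mean signal.

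Cited2 encodes a co-regulator of transcription that docks on the co-activators p300 and CBP, competes with HIF1A for them, and co-activates TFAP2 transcription factors. Mice without it develop heart malformations, defects of the left-right body axis, neural tube closure defects and faults of tissues formed by the neural crest. At the stage sampled here the heart tube has begun to beat, the neural folds are closing, neural crest cells leave the dorsal neural tube, and the tailbud adds new somites.

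The targeted gene was checked first. At the brightest of its 3 probes the Cited2 signal, on the linear scale, was 9.4, 6 and 10 in control-diet knockout replicates 1, 2 and 3 and −3.5, 4.4 and 119.7 in high-fat knockout replicates 1, 2 and 3. High-fat replicate 3 was the single knockout embryo in which this probe was detected, and it still lay below the 1615.5 to 4210.3 of the wild-type embryos. A dimmer probe was also detected in high-fat replicate 3 alone among the knockout embryos, at 31.2, and the remaining probe in 0 of 6. The labels do not say whether these probes fall within the deletion.

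The 6 knockout embryos differed in ways that the diet labels do not name. Xist, the transcript made from the inactive X chromosome of female cells, had log2 signals of 4.36, 4.48 and 10.56 in control replicates 1, 2 and 3 and of 8.84, 9.03 and 10.14 in the high-fat replicates. Eif2s3y, a Y-linked gene, was at 5.62 and 6.07 in control replicates 1 and 2 and between 4.30 and 4.54 in the other 4 knockout embryos. Xist was thus detected in 1 of 3 control-diet and 3 of 3 high-fat knockout embryos, so a difference between diets and a difference between sexes are confounded in part, and the direct comparison within Xist-detected embryos sets control replicate 3 alone against the 3 high-fat embryos. The arrays also fell into sets by the spread between beads of a probe. The median bead coefficient of variation was 19.5% to 19.8% in control replicate 1 and high-fat replicates 1 and 2, called set A, and 22.6% to 24.3% in control replicates 2 and 3 and high-fat replicate 3, called set B. What gave rise to the sets is not recorded.

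Other tissues were read from marker lists. Relative to its mean over the 6 embryos, the yolk sac visceral endoderm list of 19 tested genes averaged −0.84, −0.19 and 0.56 log2 units in control replicates 1, 2 and 3 and −0.51, −0.02 and 1.01 in the high-fat replicates. Control replicate 3 and high-fat replicate 3 were high, and the diet groups overlapped. Apoa4, an apolipoprotein made by the visceral endoderm, ran from 5.80 to 8.22 in control and from 6.72 to 9.78 in high-fat embryos. The primitive erythroid list of 10 genes averaged 0.34, −0.76 and −0.65 in the control and −0.18, 0.03 and 1.22 in the high-fat replicates, with the embryonic globin Hbb-bh1 at 12.73 in high-fat replicate 3 against 7.07 to 10.66 in the other knockout embryos. Neither list separated the diets, and high-fat replicate 3 was the highest embryo in both. In whole embryos, fewer cells of a type and less RNA per cell cannot be told apart.

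**Figure D1:**
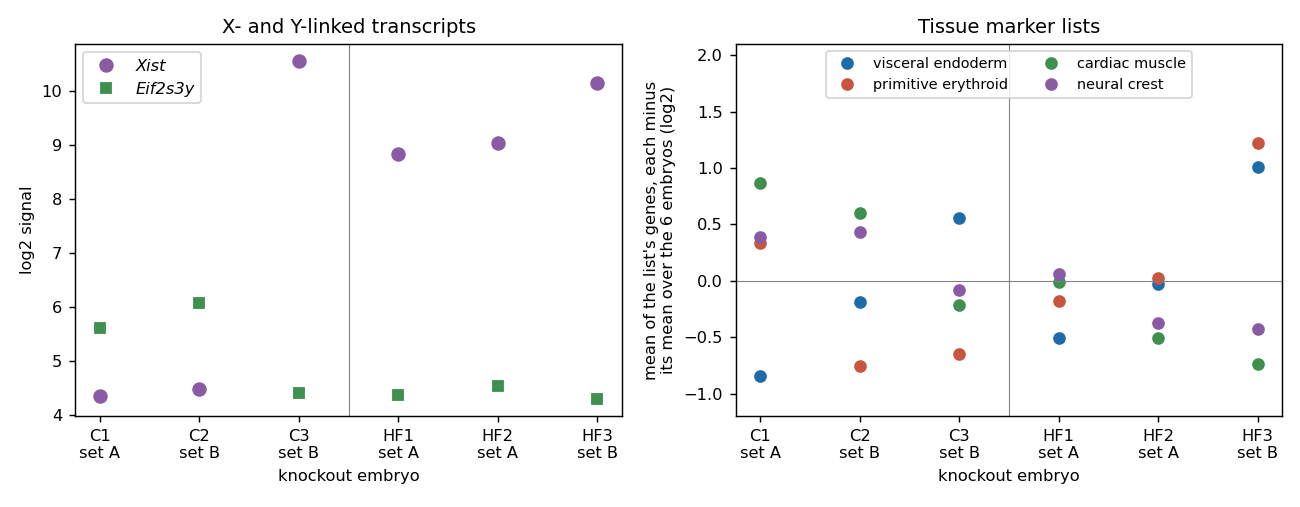
Left, log2 signal of Xist (circles) and Eif2s3y (squares) in the 6 knockout embryos (C control diet, HF high-fat diet, with the array set under each name). Right, mean of each tissue list per embryo after each gene's mean over the 6 embryos was taken off. Xist lies at 4.36 and 4.48 in C1 and C2 and at 8.84 or above in the other 4, and the visceral endoderm and erythroid lists are highest in HF3.

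No probe differed between the diets in knockout embryos after correction. In limma's moderated test 0 of 18254 probes (percent called 0) passed an adjusted p of 0.05 (Benjamini-Hochberg), and the lowest adjusted p was 0.684. At an unadjusted p under 0.05 there were 1126 probes, 6.17% of those tested, of which 669 were higher (3.66%) and 457 lower (2.50%) in high-fat embryos. By gene there were 695 (6.78%), of which 421 were higher (4.11%) and 274 lower (2.67%). This split moved with the scaling of the arrays, since median scaling gave 281 higher and 439 lower probes and the authors' deposited log2 values gave 514 and 609, also with 0 passing probes. With limma's array weights, which give each array its own reliability, 987 probes passed, 529 higher and 458 lower. The weights of the knockout arrays ran from 0.374 for high-fat replicate 3 to 3.76 for high-fat replicate 2, and the largest weight, 8.59, went to a wild-type embryo. The statements below therefore give measured differences, and no gene is said to have passed. Groups did not overlap, high-fat above control, for 1075 genes (10.5%), and control above high-fat for 426 (4.16%).

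Among the genes that ranked highest, the retinoic acid binding protein Crabp1 was 2.03-fold lower, and the vertnin gene Vrtn was 3.40-fold higher in high-fat knockout embryos. Vrtn was detected in 1 of 3 control embryos, so its fold rests in part on values at background. The 12 genes per direction with the smallest unadjusted p and no overlap between groups are described next, all with an adjusted p of 0.684 in limma. As they were picked for the separation of these 6 embryos, that separation is a description. Errors of log2 differences (high-fat minus control) are standard errors of the model with 3 embryos per group.

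Crabp1, a cytosolic protein that binds retinoic acid and marks the hindbrain and cranial neural crest, had log2 signals of 10.65, 10.95 and 10.60 in control replicates 1, 2 and 3 and of 9.66, 9.69 and 9.80 in the high-fat replicates. The 3 high-fat embryos lay close together and all below the controls. The means were 10.74 ± 0.19 and 9.72 ± 0.07 (SD, n = 3), a difference of −1.02 ± 0.17 (unadjusted p = 7.82e-05 in limma, the smallest of any gene that was lower). Within either array set it was −0.98, and it was −0.89 among embryos with Xist detected.

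Tob1, a member of the antiproliferative BTG/Tob family, had 7.06, 7.53 and 7.36 in control and 6.36, 6.36 and 6.38 in high-fat embryos. The high-fat values were nearly equal, and the difference was −0.95 ± 0.18. Zfp507, a zinc finger gene, had 7.28, 7.41 and 6.93 against 6.21, 6.25 and 6.04, a difference of −1.04 ± 0.21, and its other tested probe gave −1.07. Efcab1, an EF-hand calcium-binding protein of motile cilia, was the lowest of the 12 by fold, with 6.43, 6.92 and 6.57 in control and 4.97, 5.27 and 5.33 in high-fat embryos (−1.45 ± 0.33, 2.73-fold lower). No high-fat value of these 3 genes reached the lowest control value. Efcab1 was detected in 2 high-fat embryos, so its fold rests in part on a value at background.

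Genes of the cytoskeleton and of axon guidance were also among the lower 12. Prkg1, the cGMP-dependent protein kinase that relaxes smooth muscle, had 7.68, 8.04 and 7.47 in control and 6.67, 6.23 and 6.50 in high-fat embryos (−1.26 ± 0.29), while its dimmer probe gave −0.48. Myl9, a regulatory light chain of smooth muscle and non-muscle myosin, had 9.37, 9.32 and 8.67 against 8.61, 8.21 and 8.12 (−0.81 ± 0.22). Control replicate 3 lay just above high-fat replicate 1, so the Myl9 groups only just separated. Sema3a, a secreted axon repellent, had 7.07, 7.71 and 6.94 against 6.37, 6.30 and 6.44 (−0.87 ± 0.24), and Dtna, the dystrobrevin of the dystrophin complex, differed by −0.81 ± 0.19. Mdga2, a membrane-anchored immunoglobulin-domain protein that binds neuroligins, was at 5.81, 5.51 and 5.52 in control embryos and was not detected on any high-fat array, at least 1.30-fold lower. The remaining members were Ildr2, an immunoglobulin-domain receptor (−0.60 ± 0.16), Dhrs13, a short-chain dehydrogenase (−0.57 ± 0.15), and Prrt4 (−0.71 ± 0.20).

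On the higher side, Nckap1l, the blood cell subunit of the WAVE complex that drives actin branching, had 4.73, 4.75 and 5.29 in control and 5.89, 6.00 and 5.98 in high-fat embryos. Control replicate 3 was the highest control, and the high-fat embryos lay close together. The difference was 1.03 ± 0.19 (unadjusted p = 0.000173 in limma). Vrtn, a gene tied to the number of vertebrae in pigs, had 4.98, 5.18 and 5.97 in control and 6.63, 7.42 and 7.37 in high-fat embryos, the largest difference of the 24 at 1.76 ± 0.34. Within set A it was 2.04, within set B 1.80, and it was 1.17 among embryos with Xist detected, and control replicate 3 was again the highest control.

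Bst2, the interferon-induced membrane protein tetherin, had 6.73, 5.94 and 6.54 against 7.33, 7.46 and 7.38 (0.98 ± 0.22). Pced1b had 5.96, 5.86 and 6.45 against 7.15, 7.12 and 7.07 (1.02 ± 0.22), with 0.64 at its other tested probe. B3gnt7, an enzyme that extends keratan sulfate chains, had 6.73, 6.77 and 7.26 against 7.79, 8.02 and 7.78 (0.94 ± 0.21). In each of these 3 genes the high-fat embryos were tightly grouped and the controls spread more. Pkp3, a plakophilin of desmosomes, differed by 0.80 ± 0.18, Odf3b by 1.01 ± 0.24, Tmem145 by 0.75 ± 0.17, 1700007K13Rik by 0.70 ± 0.16 and Chrnb2, a nicotinic acetylcholine receptor subunit, by 0.68 ± 0.16. Osr2, a zinc finger factor of palate and limb development, and Spock2, a testican proteoglycan, were not detected on any control array and were at least 1.35-fold and 1.28-fold higher. The other tested Osr2 probe gave 0.002, so the Osr2 probes disagreed.

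**Figure D2:**
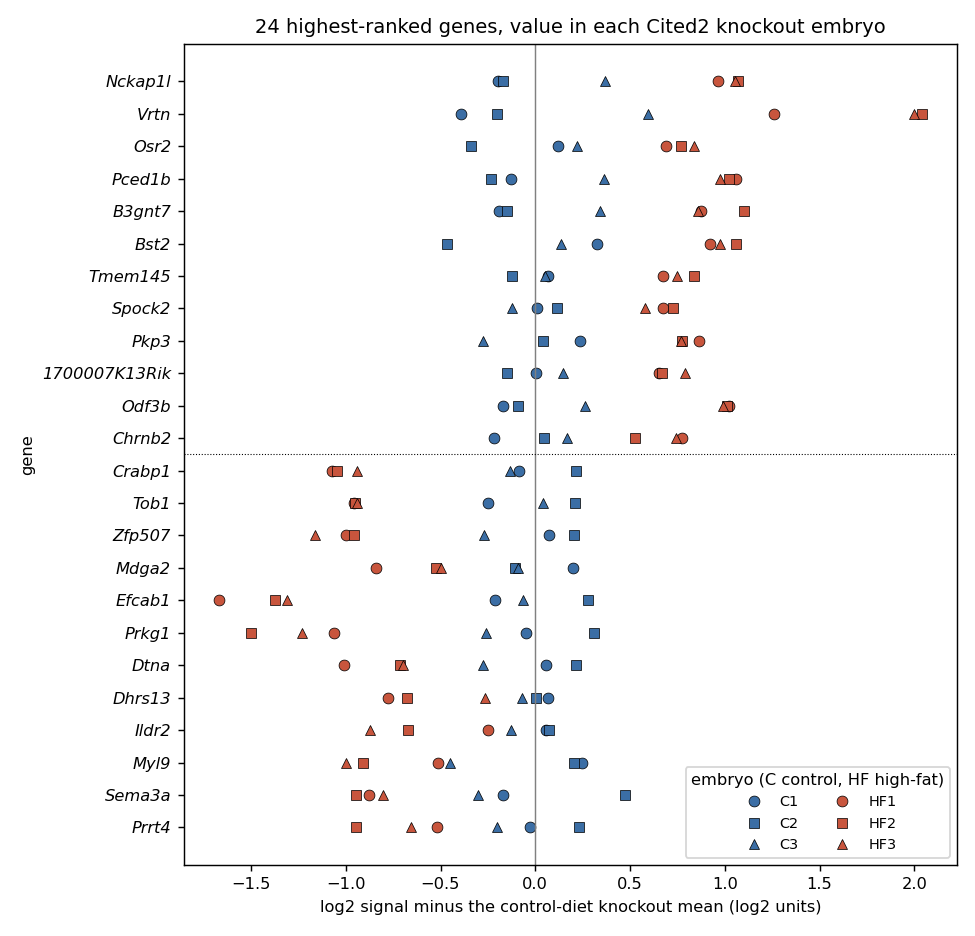
Log2 signal of each knockout embryo minus the control-diet mean of the gene, for the 12 genes higher (top) and the 12 lower (bottom) in high-fat embryos with the smallest unadjusted p among those whose groups did not overlap. Blue marks the 3 control and red the 3 high-fat embryos. The red points are clustered for Tob1 and Odf3b, and the gap is smallest for Myl9.

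All 24 genes had the same sign within set A, within set B and among the embryos with Xist detected. For comparison, the differences within sets A and B had 1 sign for 6142 of all 10245 genes (60.0%). Of the 24 genes, 13 were detected on all 6 arrays. Nckap1l, Vrtn, Odf3b, Chrnb2 and 1700007K13Rik were each detected in 1 control embryo. Efcab1 and Dtna were each detected in 2 high-fat embryos, and Dhrs13 in 1. Their differences rest in part on values at background. The 24 were chosen with all 6 embryos in view, so the agreement within subsets is not an independent check.

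Contractile and hormone genes of the heart were lower in high-fat knockout embryos. Of 21 tested genes of the cardiac muscle list, 11 were lower and 0 higher at an unadjusted p under 0.05 (2.67% and 4.11% of all genes), and 19 of 21 differences were negative. The list median was −0.73 on the log2 scale, against 0.05 for all tested genes, and it was also −0.73 over the 15 members detected on all 6 arrays. Nppa, Nppb and Hspb7, which are among the 11, met the detection filter through the control embryos alone. That favours a lower value in high-fat embryos, so the count is a description. No gene of the list passed after correction.

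Nppa and Nppb, which encode the natriuretic peptides of the heart chambers, were the furthest apart. Nppa had log2 signals of 8.34, 7.17 and 5.51 in control replicates 1, 2 and 3 and of 4.85, 4.73 and 4.91 in the high-fat replicates. Nppb had 8.41, 7.39 and 5.33 in the control and 5.14, 4.79 and 4.83 in the high-fat replicates. Both genes were detected in all 3 control embryos and on no high-fat array, and control replicate 3 was close to the high-fat values. Nppa was at least 3.43-fold and Nppb at least 3.50-fold lower (limma, adjusted p = 0.684 for each).

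Myl7, the atrial myosin light chain present throughout the early heart tube, had 10.69, 11.11 and 10.46 in control and 9.65, 9.49 and 9.53 in high-fat embryos (−1.19 ± 0.35). All controls lay above all high-fat embryos, and the difference was −0.90 among embryos with Xist detected. Myl2, the ventricular myosin light chain, had 10.94, 10.32 and 8.60 against 8.99, 8.39 and 7.99 (−1.50 ± 0.48). Here control replicate 3 lay below high-fat replicate 1, so the groups overlapped. The same overlap was seen for the sarcomere genes Actn2 (−1.26 ± 0.42), Myh6 (−1.15 ± 0.40) and Actc1 (−0.88 ± 0.31). Tnni1, the slow troponin I, differed by −0.90 ± 0.38 without overlap, and the small heat shock protein Hspb7 was at least 1.72-fold lower.

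Per embryo, the cardiac list averaged 0.87, 0.60 and −0.22 in control replicates 1, 2 and 3 and −0.01, −0.51 and −0.73 in the high-fat replicates. Control replicates 1 and 2, in which Xist was not detected, were the high ones, and control replicate 3, in which it was, lay between high-fat replicates 1 and 2. The median over the list was −0.93 within set A and −0.88 within set B, but −0.21 among the embryos with Xist detected. Without each embryo in turn it ran from −0.54 to −1.07. The visceral endoderm list ran in the opposite order over the control embryos and also over the high-fat embryos. What share of the cardiac difference went with sex or with carried-over tissue was not tested.

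Regulators of the heart fields did not share this difference. Of 19 tested genes, 2 were lower and 1 higher at an unadjusted p under 0.05 (2.67% and 4.11% of all genes). The median was 0.12, and 11 of the 19 differences were positive. Nkx2-5, the homeobox factor of cardiac progenitors, differed by −0.03 ± 0.19, Mef2c by −0.14 ± 0.23 and Isl1, a marker of the second heart field, by 0.31 ± 0.15. Hey1, a Notch target, was 9.80, 10.28 and 9.85 in control and 9.39, 9.78 and 9.39 in high-fat embryos (−0.45 ± 0.17). Gata5, a zinc finger factor of endocardium and endoderm, differed by 0.40 ± 0.17, with overlap.

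Neural crest genes were mixed. Of 12 tested, 4, Crabp1 among them, were lower and 0 higher at an unadjusted p under 0.05 (2.67% and 4.11% of all genes), with a median of −0.37. Sox10, which marks migrating crest cells, had 9.42, 9.21 and 7.07 in control and 7.89, 5.88 and 5.22 in high-fat embryos (−2.23 ± 0.67). Control replicate 3 lay below high-fat replicate 1, and the difference among embryos with Xist detected was −0.74. Ednrb, the endothelin receptor of crest-derived pigment and enteric cells, had 9.56, 9.77 and 8.70 against 8.72, 8.00 and 8.45 (−0.95 ± 0.28), where control replicate 3 and high-fat replicate 1 were nearly equal. Sox9, a factor of crest specification, differed by −0.36 ± 0.15. The crest factors Twist1 and Tfap2a differed by −0.01 ± 0.13 and −0.09 ± 0.17, so members of the list differed among themselves. The list median was −0.27 in set A, −0.43 in set B and −0.21 among embryos with Xist detected. With Xist detection as a block it was −0.30.

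Genes that pattern the brain and neural tube were lower in 7 and higher in 1 of 17 tested cases at an unadjusted p under 0.05 (2.67% and 4.11% of all genes), with a median of −0.57. Of 28 listed genes these 17 passed the detection filter, 3 of them (En2, Rax and Nkx2-2) with no detection on at least 1 high-fat array. Over the 14 detected on all 6 arrays the median was −0.33, and over all 17 it was −0.26 within set A and −0.69 within set B. En2, an engrailed homeobox gene expressed where midbrain meets hindbrain, had 5.53, 5.76 and 5.36 in control embryos and was not detected on any high-fat array, at least 1.25-fold lower. Rax, needed for the eye field, had 6.45, 6.30 and 6.04 against 5.49, 5.83 and 4.55 (−0.97 ± 0.30), without overlap and with high-fat replicate 3 the lowest. Wnt8b, a Wnt ligand of the dorsal forebrain, had 7.30, 7.25 and 6.62 against 6.66, 5.90 and 5.81 (−0.93 ± 0.25), with overlap of control replicate 3 and high-fat replicate 1. Dbx1, a homeobox gene of neural progenitors, differed by −0.90 ± 0.29, Nkx2-2, a ventral neural tube factor, by −0.65 ± 0.24, and Fezf1, a forebrain factor, by −1.11 ± 0.48. Fezf1 rested on high-fat replicate 3, at 6.41 against 8.41 and 8.89 in the other high-fat embryos.

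Gbx2, which sets the hindbrain side of the midbrain boundary, was the gene in the opposite direction, with 11.18, 11.07 and 11.55 in control and 11.47, 12.04 and 12.05 in high-fat embryos (0.59 ± 0.19). The general neural progenitor genes Sox2 and Sox3 differed by −0.19 ± 0.30 and 0.35 ± 0.24. Without high-fat replicate 3, which was lowest for several of these genes, the list median was −0.33. Among embryos with Xist detected it was −0.42, and with Xist detection as a block it was −0.63.

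**Figure D3:**
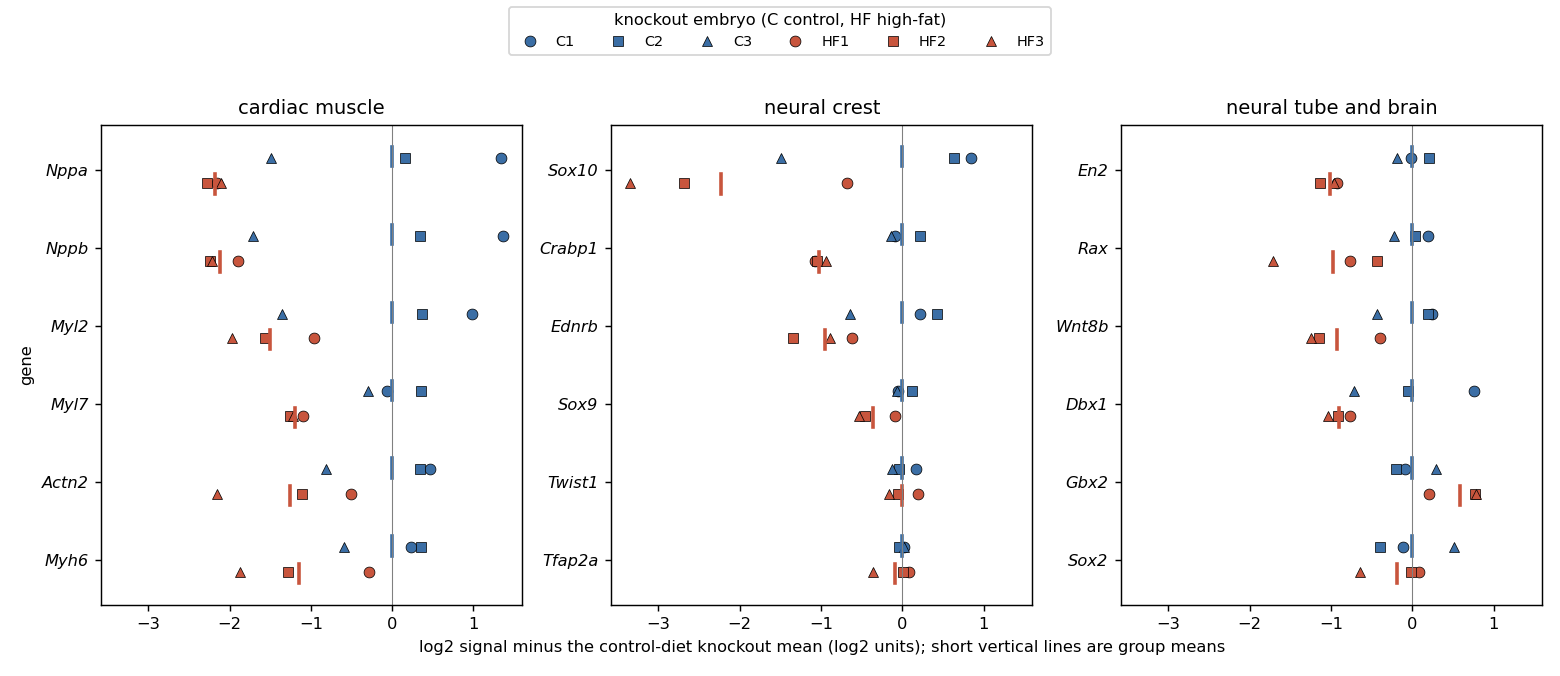
Log2 signal minus the control-diet knockout mean of the gene for 6 genes each of cardiac muscle, neural crest, and neural tube and brain. Points are embryos (blue control, red high-fat, shape by replicate) and short vertical lines are group means. For Nppa, Nppb, Myl2 and Sox10 control replicate 3 (blue triangle) lies near the high-fat embryos, whereas for Crabp1, Myl7 and En2 it lies with the other controls.

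Hox genes, which give cells their position along the head-to-tail axis, were lower in 5 and higher in 1 of 22 tested cases at an unadjusted p under 0.05 (2.67% and 4.11% of all genes), with a median of −0.30. The share of higher genes was thus near that of all genes. Hoxd3 had 8.45, 8.66 and 7.76 in control and 7.56, 7.30 and 7.22 in high-fat embryos (−0.93 ± 0.27), without overlap. Hoxa7 differed by −0.68 ± 0.22, Hoxa3 by −0.49 ± 0.17, Hoxc6 by −0.92 ± 0.32 and Hoxa9 by −1.18 ± 0.40, the last 2 with overlap. Hoxb6 differed by 0.60 ± 0.25, with high-fat replicate 3, at 8.26, level with control replicate 3, at 8.25. The Hox median shrank to −0.10 without high-fat replicate 3 and to −0.09 among embryos with Xist detected. With Xist detection as a block it was −0.25.

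In the tailbud, where new axial tissue is made, 3 of 14 tested genes were higher and 0 lower at an unadjusted p under 0.05 (4.11% and 2.67% of all genes). Mixl1, a homeobox gene of the primitive streak, had 5.16, 5.45 and 5.57 in control and 6.04, 6.18 and 6.28 in high-fat embryos (0.78 ± 0.23), without overlap. Cdx1, a caudal homeobox gene, had 8.25, 8.69 and 9.72 against 9.33, 9.97 and 9.88 (0.84 ± 0.33), but the difference among embryos with Xist detected was 0.01, since control replicate 3 was as high as the high-fat embryos. With Xist detection as a block the Cdx1 difference was 0.60. Cdx2 differed by 0.44 ± 0.19, and Wnt3a, a ligand that maintains axial progenitors, by 0.45 ± 0.21. Of 6 tested somite genes, 0 were higher or lower at this threshold. The segmentation gene Hes7 differed by 0.11 ± 0.15 and the mesoderm factor Foxc1 by 0.32 ± 0.20.

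Left-right signalling runs from Nodal, a TGF-beta family ligand, through the transcription factor Foxh1 to the inhibitors Lefty1 and Lefty2. Of 10 tested genes, 2 were higher and 0 lower at an unadjusted p under 0.05 (4.11% and 2.67% of all genes). Foxh1 had 6.90, 7.02 and 7.85 in control and 8.63, 8.48 and 8.60 in high-fat embryos. All high-fat embryos exceeded all controls, by 1.31 ± 0.35 on average, and the other tested Foxh1 probe gave 1.08. Within set A the difference was 1.65, within set B 1.16, and it was 0.72 among embryos with Xist detected.

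Nodal had 4.71, 7.43 and 7.22 in control and 6.35, 7.99 and 6.35 in high-fat embryos (0.45 ± 0.74), with overlap. Within set A it was 2.47 and within set B −0.98, opposite directions. Lefty1 had 4.98, 5.65 and 7.02 against 6.89, 8.83 and 6.22 (1.43 ± 0.61), with 2.88 in set A and −0.11 in set B, and high-fat replicate 2 alone was above every control. Lefty2 was detected in 2 control-diet and 0 high-fat knockout embryos and missed the detection threshold for testing. Its linear signal was 4.2, 169.4 and 22.7 in control and 5, 20.7 and −2.6 in high-fat embryos. Shh and Gdf1, ligands of the node and midline, differed by 0.03 ± 0.20 and 0.13 ± 0.12.

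Among partners of Cited2, the TFAP2 genes went in different directions. Tfap2b had 8.69, 8.03 and 6.56 in control and 6.92, 5.35 and 4.43 in high-fat embryos (−2.19 ± 0.59, 4.57-fold lower). High-fat replicate 1 lay above control replicate 3. In high-fat replicate 3 the probe was not detected, so the fold rests in part on a value at background. The other 2 probes gave −2.13 and −1.82 and were detected on 0 and 1 high-fat arrays. Among embryos with Xist detected the Tfap2b difference was −0.99, and with Xist detection as a block it was −1.69. Tfap2c had 9.71, 9.54 and 9.68 against values between 9.98 and 10.17 in high-fat embryos (0.41 ± 0.13), without overlap, and Tfap2a was given above. The co-activator gene Crebbp, which encodes CBP, differed by −1.03 ± 0.40, with overlap, while Ep300, which encodes p300, differed by −0.01 ± 0.23. Arnt, the partner of HIF1A on DNA, differed by 0.46 ± 0.21, and Hif1a itself by −0.05 ± 0.18. Bmi1, a polycomb gene, had 6.56, 6.27 and 6.39 against 6.36, 6.75 and 6.45 (0.12 ± 0.15), with overlap. The homologues Cited1 and Cited4 differed by 0.35 ± 0.18 and 0.62 ± 0.37.

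Retinoic acid genes went in both directions. Both binding proteins were lower, Crabp1 as given and Crabp2, with 11.32, 11.27 and 11.08 in control and 10.91, 10.82 and 10.78 in high-fat embryos (−0.39 ± 0.14). The receptor Rarg had 7.27, 7.07 and 7.32 against 7.67, 7.68 and 7.91 (0.54 ± 0.14). The groups of both genes did not overlap. The retinol transporter Stra6 (0.52 ± 0.19) and the synthesis enzyme Aldh1a2 (0.42 ± 0.17) were higher without overlap as well, so 3 of the 10 tested genes were higher and 2 lower at an unadjusted p under 0.05 (4.11% and 2.67% of all genes). The other Rarg probes gave 0.32 and −0.17 and so did not share 1 direction. The degrading enzyme Cyp26a1 differed by 0.09 ± 0.12.

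Endothelial genes were lower in 6 and higher in 1 of 21 tested cases at an unadjusted p under 0.05 (2.67% and 4.11% of all genes), with a median of −0.20. Emcn, the endothelial sialoprotein endomucin, had 9.17, 8.97 and 8.05 in control and 8.37, 7.48 and 6.96 in high-fat embryos (−1.13 ± 0.35), with overlap. Esam, a junction protein, had 9.83, 9.70 and 9.47 against 9.34, 9.43 and 9.15 (−0.36 ± 0.14), where the groups only just separated. The apelin receptor gene Aplnr was higher by 0.39 ± 0.16. The list median was −0.04 without high-fat replicate 3 and −0.06 without control replicate 1, and it was 0.10 among embryos with Xist detected, where the direction turned. With Xist detection as a block the list median was −0.0014. The pan-endothelial adhesion gene Pecam1 differed by 0.06 ± 0.16.

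**Figure D4:**
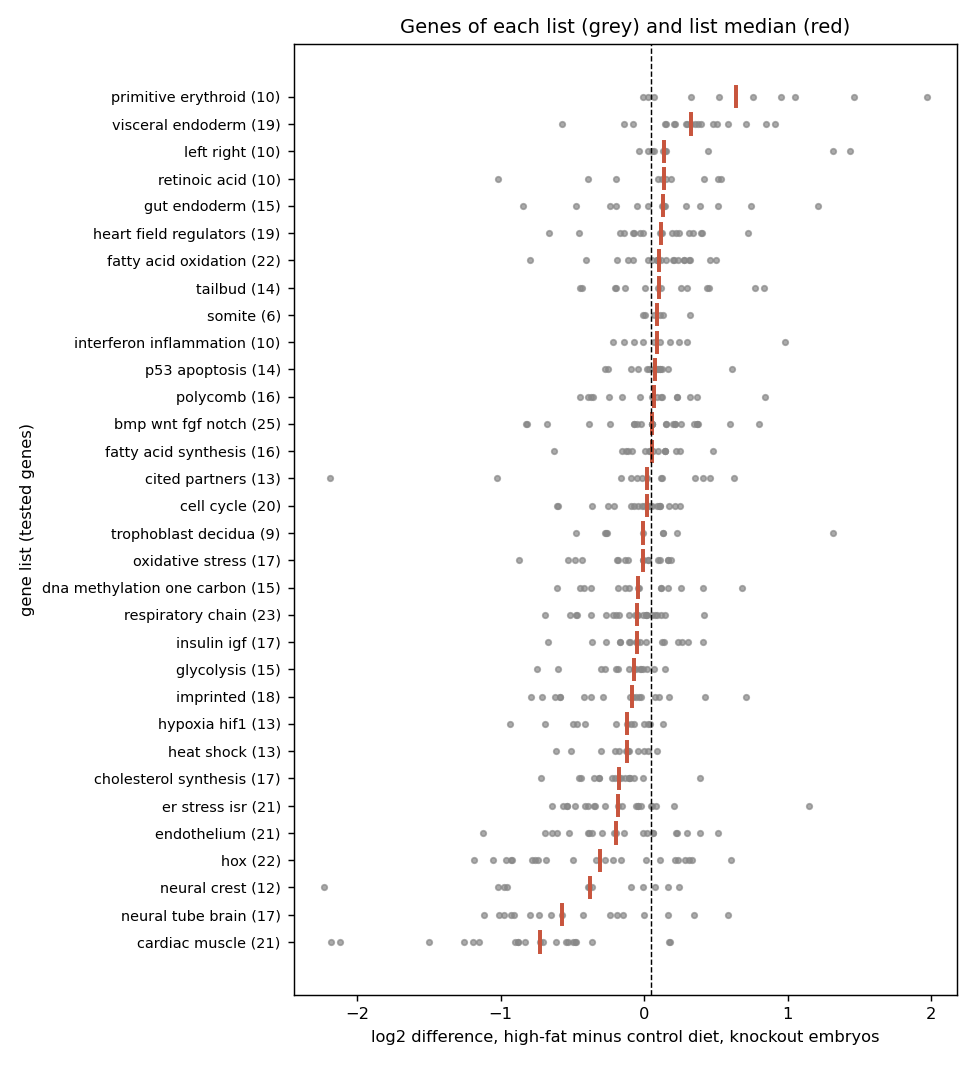
Log2 difference (high-fat minus control) in knockout embryos of each tested gene (grey points) in 32 gene lists, with the list median (red line) and the median over all genes (dashed). The number of tested genes follows each name. Cardiac muscle, neural tube and brain, and neural crest have the lowest medians, and primitive erythroid and visceral endoderm, whose embryos overlap between diets, the highest.

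Metabolic and stress lists had medians between −0.18 and 0.11, against 0.05 for all genes, of which 5945 of 10245 differences were positive. Negative differences made up 16 of 17 for cholesterol synthesis, 16 of 21 for the integrated stress response, 11 of 13 for heat shock and 12 of 15 for glycolysis. For fatty acid oxidation the median was 0.11 over 22 genes, with 2 higher and 1 lower at an unadjusted p under 0.05 (4.11% and 2.67% of all genes). Ppargc1a, the co-activator that drives mitochondrial genes, had 5.81, 5.57 and 5.56 in control embryos and was not detected on any high-fat array, at least 1.33-fold lower. Slc27a1, a fatty acid transporter, differed by 0.46 ± 0.18. Cholesterol synthesis had a median of −0.18 over 17 genes, with Msmo1 at −0.72 ± 0.30 and Lss at −0.44 ± 0.19 (−0.05 at its other probe). Control replicate 3 had the highest value of both, and the list median, 0.04 within set A, reached −0.51 within set B and −0.52 among embryos with Xist detected.

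Glycolysis had a median of −0.07 over 15 genes. Pdk1, the kinase that shuts pyruvate out of mitochondria, had 8.98, 8.77 and 8.33 in control and 8.13, 8.18 and 7.95 in high-fat embryos (−0.60 ± 0.20), without overlap. Targets of HIF1 had a median of −0.12 over 13 genes. Of these 13, 2 were lower and 0 higher at an unadjusted p under 0.05 (2.67% and 4.11% of all genes). The 2 were the histone demethylase Kdm3a (−0.47 ± 0.17) and the prolyl hydroxylase P4ha1 (−0.49 ± 0.22). The lowest difference, −0.93 ± 0.47 for Ankrd37, did not reach this threshold. Other probes gave −0.21 and −0.11 for Kdm3a and −0.18 for P4ha1. In the insulin and IGF list (median −0.05), Igfbp5, an IGF-binding protein, had 13.23, 13.15 and 12.82 against 12.72, 12.36 and 12.12 (−0.67 ± 0.19), with −0.86 and −0.84 at its 2 other probes. The kinase gene Mtor differed by 0.41 ± 0.17 and by 0.20 at its other probe.

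In the respiratory chain (23 genes), oxidative stress (17), heat shock (13) and fatty acid synthesis (16) lists the medians lay between −0.12 and 0.05. In these lists 1 gene in all had an unadjusted p under 0.05, the acetyl-CoA carboxylase gene Acacb (0.48 ± 0.20). Of all genes 6.78% did so, in either direction. For the integrated stress response the median was −0.18 over 21 genes, with the amino acid transporter Slc7a3 at 1.15 ± 0.35 (0.11 at its other probe) and the stress factor Atf3 at −0.54 ± 0.20. Cell cycle genes had a median of 0.02 over 20 genes, p53 targets 0.08 over 14, with Phlda3 at 0.61 ± 0.18 (0.06 at its other probe), and imprinted genes −0.09 over 18. Of the imprinted genes 13 differences were negative. The groups did not overlap for 4 that were lower and 1 that was higher (4.16% and 10.5% of all genes). Phlda2, a growth-restraining gene, differed by 0.71 ± 0.22 and Gnas, which encodes a stimulatory G protein subunit, by −0.58 ± 0.27, both without overlap. The other Gnas probes ran from −0.65 to 0.20 and so did not share 1 direction. The polycomb list had a median of 0.07 over 16 genes, with Cbx7 at 0.84 ± 0.26 and Cbx8 at −0.39 ± 0.11. Of 25 ligands and inhibitors of BMP, Wnt, FGF and Notch signalling, 4 were higher and 3 lower at an unadjusted p under 0.05. Of all genes 4.11% were higher and 2.67% lower at this threshold. Among the 25, the BMP antagonists Chrd (0.80 ± 0.22) and Grem1 (−0.82 ± 0.25) went in opposite directions without overlap. The gut endoderm list (median 0.13 over 15 genes) held the hormone genes Trh (1.21 ± 0.33) and Pyy (−0.84 ± 0.26). Trophoblast and decidua markers had a median of −0.01 over 9, DNA methylation and one-carbon genes −0.05 over 15, and interferon genes 0.09 over 10.

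The diet difference in knockout embryos was then set beside that in wild-type embryos, with the interaction as its test. In limma 0 probes passed for the interaction (percent called 0, lowest adjusted p = 1), and 213 (1.17%) had an unadjusted p under 0.05. The wild-type comparison had 0 passing probes (percent called 0, lowest adjusted p = 0.829) and 752 (4.12%) with an unadjusted p under 0.05. By gene, 92 (0.898%) had an unadjusted p under 0.05 for the interaction and 387 (3.78%) for the wild-type comparison. Across the 10245 genes, 7671 differences (74.9%) had the same sign in both genotypes, and Pearson's r was 0.683 across genes, which are not independent replicates. The array sets as called were balanced between diets in wild-type but not in knockout embryos. Knockout and wild-type embryos of a diet share title numbers, whose meaning is not stated. Whether this sharing adds to the correlation was not tested. The correlation was 0.510 with the array set as a block. The median absolute difference over genes was 0.159 for knockout and 0.155 for wild-type embryos.

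Of the 24 genes ranked in knockout embryos, 20 had the same sign in wild-type embryos, where the difference was smaller for all 24. As the 24 were picked for large differences in knockout embryos, a smaller value elsewhere is a description. Zfp507 differed by −0.97 ± 0.21 in wild-type embryos, close to its −1.04 in knockout embryos, and Efcab1 by −1.10 ± 0.33. Crabp1 differed by −0.35 ± 0.17 (interaction −0.67, unadjusted p = 0.018 in limma). Vrtn differed by 0.94 ± 0.34 and Prkg1 by −0.42 ± 0.29.

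The genes with the smallest interaction p were Osr2, Mdga2, Steap4, Rad51b and Arhgap42, and none passed (limma, adjusted p = 1 for each). Osr2, Mdga2, Steap4 and Rad51b passed the detection filter, which used knockout arrays only, through 1 diet group alone. That choice favours a difference between diets in knockout embryos, so their interaction values are a description. The interaction of Osr2 was 0.79, but −0.32 at its other tested probe. Mdga2 differed by 0.06 ± 0.14 in wild-type embryos (interaction −0.68, unadjusted p = 0.00442 in limma). Steap4, a metalloreductase, was at least 1.15-fold higher in high-fat knockout embryos and differed by −0.33 ± 0.20 in wild type, and Rad51b, a recombination gene, was at least 1.14-fold lower in high-fat knockout embryos, against 0.22 ± 0.13 in wild type. Arhgap42 differed by 0.15 ± 0.13 in knockout and −0.46 ± 0.13 in wild-type embryos. Among lists, the cardiac muscle median was −0.21 in wild-type against −0.73 in knockout embryos, the neural tube and brain median −0.05 against −0.57, and the neural crest median −0.06 against −0.37, differences between genotypes that were not tested for the lists. Xist was detected in 1 of 3 wild-type embryos on either diet, against 1 of 3 control-diet and 3 of 3 high-fat knockout embryos. Among knockout embryos with Xist detected the cardiac median was −0.21, with control replicate 3 alone standing for the control diet. The wild-type median covers embryos with and without Xist detected, so these medians are not of like sets. What share of the difference between genotypes went with sex was not tested. Nppa differed by −1.27 in wild-type embryos and Myl7 by −0.66.

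**Figure D5:**
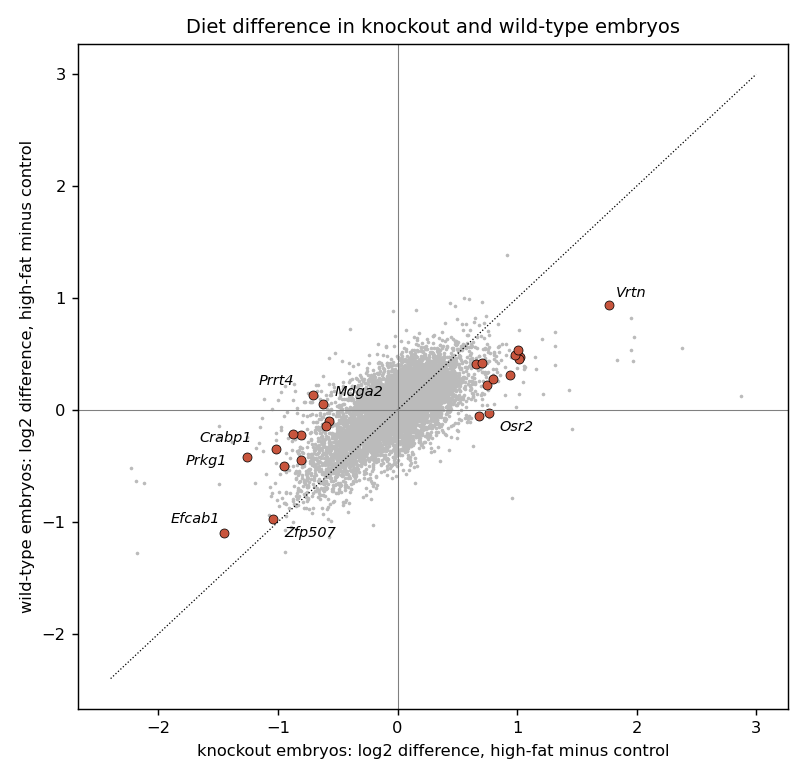
Log2 difference between diets in wild-type embryos against that in knockout embryos for 10245 genes (grey), with the 24 ranked genes in red and equality as a dotted line. Most red points lie on the same side of 0 in both genotypes and nearer to 0 in wild type, with Zfp507 close to the dotted line and Osr2, Chrnb2, Mdga2 and Prrt4 on the other side of 0 in wild-type embryos.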

How the data were processed

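Per the file headers, the authors' deposited average signal is a bead intensity on a linear scale, exported from BeadStudio 3.2.6 per the submitters' processing notes. The bead standard deviation was deposited as an intensity, with the count of beads per probe. The deposited detection p-value compares a probe with negative control beads, and the deposited single-array detection score is a fraction from 0 to 1. The authors' own processed log2 values served as an alternative. How the authors normalized them is not stated in the labels.

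Signals of the 12 arrays were background-corrected and quantile-normalized with neqc (offset 16) and fitted with lmFit and eBayes (limma 3.58.1, R 4.3.3), with a mean per group. Group contrasts were adjusted by the Benjamini-Hochberg method over 18254 probes (threshold 0.05). The script was tested on simulated data. Probes detected per knockout array numbered 16765 to 18853 (37.0% to 41.6%), and the number of arrays limits the precision. The platform table named 34885 probes with 1 gene symbol, 18 with several and 10378 with none. RefSeq gene IDs (GRCm38.p6) matched 34807 and changed 0 symbols. Where a group was undetected throughout, folds are bounds against the lowest detected signal.

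The members and lists were chosen with earlier results of these data known. The naming rule took 6 fixed genes, the 12 genes per direction ranked by unadjusted p without overlap, 5 genes by interaction p, and 2 per list of 33. Of the fixed genes, 1 is not reported here. Names outside it, such as Nppa, Sox10 and Myl7, were chosen after their values were seen. Labels call embryos replicates without naming litters, so p-values measure the spread between these embryos. Alternatives covered background, offset, scaling, source, filter, array weights, array set, title number, replicate number, sex and single embryos. Same-numbered knockout embryos of the 2 diets had correlated deviations of 0.653, −0.278 and 0.439, so the numbers were not taken as pairs. Signals in the single-array and whole-series tables differed by 0 at most.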

Additional observations from a re-analysis of the deposited data

How the results depend on the processing

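The count of 0 passing probes for diet in knockout embryos held under each alternative run except array weights, which gave 987. For the interaction it was 0 under each. Leaving out 1 knockout embryo at a time kept both counts at 0, while probes at an unadjusted p under 0.05 for diet ran from 510 without control replicate 2 to 1843 without high-fat replicate 3. That count was 1126 in the reported fit, 720 with median scaling, 545 with the Y-linked mean as a covariate, 377 with Xist detection as a block, 571 with array set and Xist detection, and 2531 of 45281 without the detection filter. For the interaction, 213 became 1260 without the filter, 135 among probes detected on all 6 arrays, 2260 with array weights, 511 with array set as a block, 478 with a wild-type array moved to set A, 129 with Xist detection and 663 with both blocks, and leaving out 1 knockout embryo it ran from 135 without high-fat replicate 2 to 488 (377 higher, 111 lower) without high-fat replicate 3. With the replicate number as a block, which the check of pairing did not bear out, 3058 probes for diet and 454 for the interaction had an unadjusted p under 0.05, 0 passed (lowest adjusted p = 0.190 for diet), and not every embryo correlated best with its own number. Of 91 named genes, 54 passed with array weights and 0 elsewhere. Signs turned for few named genes. Uty, a Y-linked gene at 0.02, gave −0.058 with median scaling, −0.0247 with the authors' values, −0.0423 with array weights, −0.0236 with array set as a block, −0.038 with Xist detection, −0.0371 with a wild-type array moved to set A, −0.0805 with both blocks and −0.27 in set B. The Uty probe was detected on all 6 knockout arrays, those with Xist detected included, and is part of the Y-linked mean. Xist gave −0.77 with its own block, −0.60 with both and −1.22 among Xist-detected embryos. In set A, Bmi1 gave −0.0048, Prl2c2 −0.59, Uqcrfs1 −0.13 and Bbc3 0.0383. In set B, Nodal gave −0.98 and Lefty1 −0.11, and Nodal gave −0.32 among Xist-detected embryos. Leaving out 1 embryo, Nodal ran from −0.43 without control replicate 1 to 0.93 without control replicate 2, and Uty from −0.14 without high-fat replicate 1 to 0.149 without high-fat replicate 3. The Xist blocks, the Xist-detected subset and the moved array were chosen after seeing the data. Probes near background and 3 embryos per diet, with 1 Xist-detected control, limit these values.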
